A study of Mus musculus with 4 samples.

Results

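Polycomb repressive complex 2 (PRC2) was followed here through 9 of its genes, out of 32285 genes in the files. They were found by symbol, and each symbol had 1 row: Ezh2, Ezh1, Suz12, Eed, Rbbp4, Rbbp7, Jarid2, Mtf2 and Phf19. The cells came from the bone marrow of 5TMM mice, in which 5TGM1-luc myeloma cells had been injected intravenously into C57BL/KawRij mice at 6 weeks of age and had grown for 3 weeks. Every mouse therefore carried myeloma, the controls included, and no mouse without tumor was analysed here. The vehicle group held 2 mice given vehicle alone, and the PM group held 2 mice given 10 mg/kg purinostat mesylate (PM, which the sample labels spell Purostatin Mesylate), an inhibitor of class I and IIb histone deacetylases (HDACs). Marrow was taken at 24 h in both groups, red cells were lysed, and 1 droplet library was made per mouse, so n = 2 per group throughout. The question was how far the PRC2 genes differ between marrow cell types, with the cell cycle, and with PM.

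PRC2 places methyl groups on lysine 27 of histone H3, a mark of silenced genes. Its catalytic subunit is EZH2 or the related EZH1, which need SUZ12 and EED to be active, and RBBP4 or RBBP7 binds histones within the same core. JARID2 on one side, and MTF2 or PHF19 on the other, are accessory subunits that help to bring the core to chromatin, and EZH2 is known in blood formation as the form of dividing progenitors and EZH1 as that of resting and mature cells.

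Promoter sequences are shown for the 4 members whose window held one of the letter strings searched (Ezh2, Rbbp4, Suz12 and Phf19) and, for contrast, for Ezh1, the other catalytic subunit, which held none. The sequences were thus chosen by the match itself. Each window holds 300 bases, from 250 before to 50 after the annotated start (RefSeq, GRCm38.p6), read 5′ to 3′ on the strand of the gene. Capitals mark TTGGCGC or TTCCCGC, letters of the kind bound by E2F factors of the cell cycle, searched on both strands with no overlap between them. The windows lie at chr6:47594981-47595280 on the minus strand for Ezh2, chr4:129335321-129335620 on the minus strand for Rbbp4, chr11:79992856-79993155 on the plus strand for Suz12, chr2:34913927-34914226 on the minus strand for Phf19 and chr11:101226414-101226713 on the minus strand for Ezh1.
Ezh2: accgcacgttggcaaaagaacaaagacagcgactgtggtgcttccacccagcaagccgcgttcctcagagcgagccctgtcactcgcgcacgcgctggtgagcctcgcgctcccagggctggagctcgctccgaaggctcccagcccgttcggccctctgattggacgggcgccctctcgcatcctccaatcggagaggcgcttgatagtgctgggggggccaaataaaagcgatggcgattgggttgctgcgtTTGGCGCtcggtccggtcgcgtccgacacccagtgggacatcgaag
Rbbp4: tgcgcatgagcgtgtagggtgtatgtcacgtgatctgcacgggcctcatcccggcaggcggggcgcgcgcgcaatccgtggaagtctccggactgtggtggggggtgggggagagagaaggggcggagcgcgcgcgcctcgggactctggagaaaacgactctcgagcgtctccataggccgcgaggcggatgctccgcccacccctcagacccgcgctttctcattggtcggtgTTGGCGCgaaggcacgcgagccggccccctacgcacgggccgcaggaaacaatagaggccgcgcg
Suz12: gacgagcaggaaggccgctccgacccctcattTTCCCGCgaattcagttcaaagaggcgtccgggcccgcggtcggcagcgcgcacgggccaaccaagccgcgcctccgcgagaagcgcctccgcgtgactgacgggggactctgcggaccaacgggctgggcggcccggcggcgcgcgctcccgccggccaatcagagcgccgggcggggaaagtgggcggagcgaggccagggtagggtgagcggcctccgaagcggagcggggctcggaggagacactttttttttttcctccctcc
Phf19: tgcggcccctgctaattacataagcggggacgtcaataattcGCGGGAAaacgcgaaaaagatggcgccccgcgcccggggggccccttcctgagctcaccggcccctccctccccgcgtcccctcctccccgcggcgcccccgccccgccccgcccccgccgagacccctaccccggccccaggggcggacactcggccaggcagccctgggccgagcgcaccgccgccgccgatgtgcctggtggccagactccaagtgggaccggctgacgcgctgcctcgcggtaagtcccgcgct
Ezh1: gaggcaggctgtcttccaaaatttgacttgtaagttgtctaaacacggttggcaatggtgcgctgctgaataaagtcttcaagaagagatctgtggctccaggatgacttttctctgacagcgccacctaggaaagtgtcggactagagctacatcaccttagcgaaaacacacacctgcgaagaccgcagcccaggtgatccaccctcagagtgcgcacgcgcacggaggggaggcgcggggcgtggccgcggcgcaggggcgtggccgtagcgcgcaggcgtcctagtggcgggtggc

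The Ezh2 window held TTGGCGC from base 4 and that of Rbbp4 from base -15, counted from the start as 0. Suz12 held TTCCCGC from base -218, and Phf19 held it on the other strand from base -208. Neither was found in the window of Ezh1, nor in those of Eed, Rbbp7, Jarid2 and Mtf2, of which the last 2 have 2 windows each. Of these, Rbbp7, Mtf2 and Eed were also called higher in cycling cells in the comparison below, in 7, 4 and 3 types. Of all 32851 promoter windows of this length, 2.45% held TTGGCGC, 4.6% held TTCCCGC and 6.81% held either. A match is a description of the letters and not a measured binding site.

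The libraries held 69828595 to 109447030 unique molecular identifiers (UMIs, 1 per captured transcript end), with a median of 4717 to 6067 per cell over the 39743 cells kept. Vehicle mice gave 9261 and 7826 of these cells and PM mice 13387 and 9269, and any 2 libraries shared 18 to 39 barcodes. Clustering, which used none of the 9 genes, gave 30 clusters, and 17 cell types were named from marker genes. Each name stands for cells like that type by their markers, and 1 cluster of 235 cells stayed unnamed. Myeloma appeared as 171 clonal plasma cells, in which the light chain gene Igkv10-96 led in 158 of the 161 cells with such a UMI. Levels are in CPM, the UMIs of a gene per 1000000 UMIs summed over all cells of a type in a mouse, given as mean ± SD over the 4 mice unless a group is named.

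Ezh2 spanned a wider range of levels across the marrow than any other member. Its level was 537 ± 64.3 CPM in pro/pre-B cells, with the 4 mice between 449 and 603. Erythroid cells and their progenitors (erythroid&prog) followed with 278 ± 23.2 CPM, then cells of the megakaryocyte and platelet lineage with 259 ± 79.1 CPM and hematopoietic stem and progenitor cells (HSPC) with 198 ± 5.05 CPM. The lowest levels were those of other plasma cells, 19.0 ± 11.5 CPM, and mature neutrophils, 6.04 ± 0.929 CPM (284 UMIs in 12645 cells). The mean of the highest type was 88.9 times that of the lowest. Neighbors in the order mostly overlapped: the 4 mice lay apart from those of the next type in 3 of 16 neighboring pairs, namely below pro/pre-B cells, below HSPC and above mature neutrophils. Clonal plasma cells, the myeloma, had 132 ± 29.2 CPM of Ezh2 and other plasma cells 19.0 ± 11.5 CPM, and the mice of the first (90.1 to 158 CPM) lay above those of the second (9.17 to 35.5 CPM). Cycling cells, called as described below, made up 35.1% of clonal and 8.76% of other plasma cells, and their part was not tested. For every member, other plasma cells ranked 15 to 17 among the 17 types. Their leading genes were immunoglobulin genes such as Igha and Ighg1, whose UMIs count in the total of each CPM. The part of this in the low levels was not tested. The ranges of Ezh1 and Eed below end at the same type.

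Ezh1, the second catalytic subunit, had another order. T cells (60.1 ± 7.79 CPM), B cells (59.4 ± 9.16 CPM) and NK cells (54.5 ± 2.89 CPM) stood at the head, and the 4 mice of neighboring types lay apart in 1 of 16 pairs, NK cells (51.0 to 58.0 CPM) above CXCL12-abundant reticular (CAR) cells (31.9 to 50.9 CPM). Early granulocyte precursors had 14.1 ± 1.42 CPM and other plasma cells 11.9 ± 1.57 CPM, so the whole range was 5.05-fold. Mature neutrophils, the lowest of all for Ezh2, held the fifth highest level of Ezh1 with 37.1 ± 4.22 CPM.

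**Figure D1:**
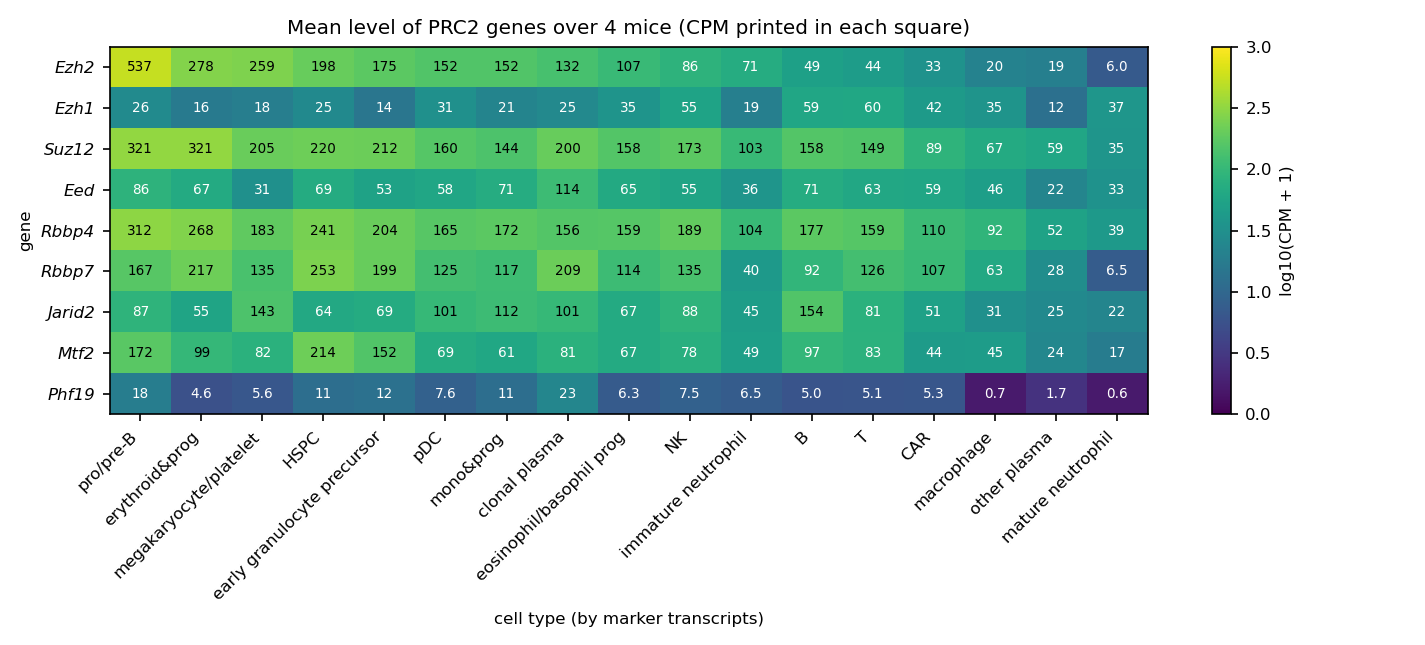
Mean level over 4 mice in CPM, printed in each square and colored on a log10 scale, for the 9 PRC2 genes (rows) in 17 marrow cell types (columns, in the order of Ezh2). Ezh2 falls from 537 CPM in pro/pre-B cells to 6.04 CPM in mature neutrophils, while Ezh1 stays between 11.9 and 60.1 CPM in another order.

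Set against each other within the same cells, Ezh1 made up a share of the summed Ezh1 and Ezh2 UMIs that ran from a few percent to most of them. These libraries count transcript ends, so the share needs no correction for transcript length, but capture may differ between the genes and only the change between cell types is read from it. It was 4.6% ± 1.32 in pro/pre-B cells, 5.48% ± 0.715 in erythroid&prog, 7.47% ± 1.05 in early granulocyte precursors and 11.2% ± 1.13 in HSPC. Monocytes and their progenitors (mono&prog) had 12.4% ± 0.731, clonal plasma cells 16.1% ± 4.31 and immature neutrophils 20.7% ± 2.56. B cells (55.5% ± 5.24) and T cells (58.0% ± 2.98) lay far above these, and mature neutrophils reached 85.9% ± 2.19. Along the neutrophil line, from early precursors over immature to mature cells, the ranges of the 4 mice did not overlap at either step (6.47% to 8.86%, 17.6% to 23.0% and 82.9% to 88.2%). Cycling cells, called as described below, also grew fewer along this line, with 92.2%, 28.7% and 0.917%. Among cycling cells alone the Ezh1 share was 7.29% ± 0.988 in early precursors and 7.65% ± 0.389 in immature neutrophils, with overlapping mice. Among the other cells it was 72.4% ± 1.86 in immature and 85.9% ± 2.27 in mature neutrophils.

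Suz12 and Eed, the obligate partners of the catalytic subunits, differed from each other in spread. Suz12 was at 321 ± 44.6 CPM in pro/pre-B cells and 321 ± 47.9 CPM in erythroid&prog, fell to 220 ± 17.1 CPM in HSPC, and was lowest in mature neutrophils with 35.4 ± 6.77 CPM, a 9.07-fold range. Eed was highest in clonal plasma cells, at 114 ± 18.0 CPM, and the next type, pro/pre-B cells at 86.4 ± 11.1 CPM, overlapped with it. The range of Eed was 5.09-fold down to other plasma cells at 22.4 ± 0.841 CPM.

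The paralogs Rbbp4 and Rbbp7, histone-binding proteins that also serve other complexes, did not share 1 order. Rbbp4 was highest in pro/pre-B cells (312 ± 46.9 CPM) and erythroid&prog (268 ± 35.8 CPM) and lowest in mature neutrophils (39.5 ± 8.27 CPM). Rbbp7 was highest in HSPC (253 ± 21.6 CPM), with erythroid&prog at 217 ± 17.6 CPM and clonal plasma cells at 209 ± 20.6 CPM. It fell to 6.46 ± 1.63 CPM in mature neutrophils, a 39.2-fold range against 7.90-fold for Rbbp4.

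Among the accessory subunits, Jarid2 had its highest mean level in B cells (154 ± 10.4 CPM), where Ezh2 was at 49.1 ± 15.5 CPM, and its lowest in mature neutrophils (22.4 ± 1.85 CPM). The next type, the megakaryocyte and platelet lineage at 143 ± 72.3 CPM, overlapped with B cells. Mtf2 was highest in HSPC (214 ± 11.8 CPM), followed by pro/pre-B cells (172 ± 31.5 CPM) and early granulocyte precursors (152 ± 13.4 CPM), and the mice of these 3 types lay apart from erythroid&prog (99.4 ± 6.79 CPM). Phf19 rested on 2607 UMIs in all, against 7856 to 48566 for each other member. It was at 22.6 ± 6.5 CPM in clonal plasma cells and 17.7 ± 3.48 CPM in pro/pre-B cells, and no neighboring pair of types lay apart.

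Whether a cell was cycling was called from 97 genes of S and G2M phase that hold no member. A cell with at least 10 list UMIs per 1000 of its own UMIs counted as cycling and any other cell as resting. Resting thus means only a share of S and G2M transcripts below this limit. Whether such cells had left the cell cycle was not measured, and 96.4% of HSPC had at least 3 per 1000. The planned limit had been 3 per 1000, and the higher one was chosen after seeing the data, because 3 per 1000 called 83.4% of mature neutrophils, 66.9% of T cells and 51.7% of B cells cycling. At 10 per 1000 these shares were 0.917%, 2.55% and 0.601%, and they were 92.2% in early granulocyte precursors, 85.2% in erythroid&prog, 56.4% in HSPC, 42.1% in mono&prog, 33.6% in pro/pre-B cells, 28.7% in immature neutrophils, 25% in eosinophil/basophil progenitors and 24.2% in plasmacytoid dendritic cells (pDC). The share of cells within 2 per 1000 of the limit was 19.6% in HSPC and 1.07% to 5.50% in the other types compared below.

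**Figure D2:**
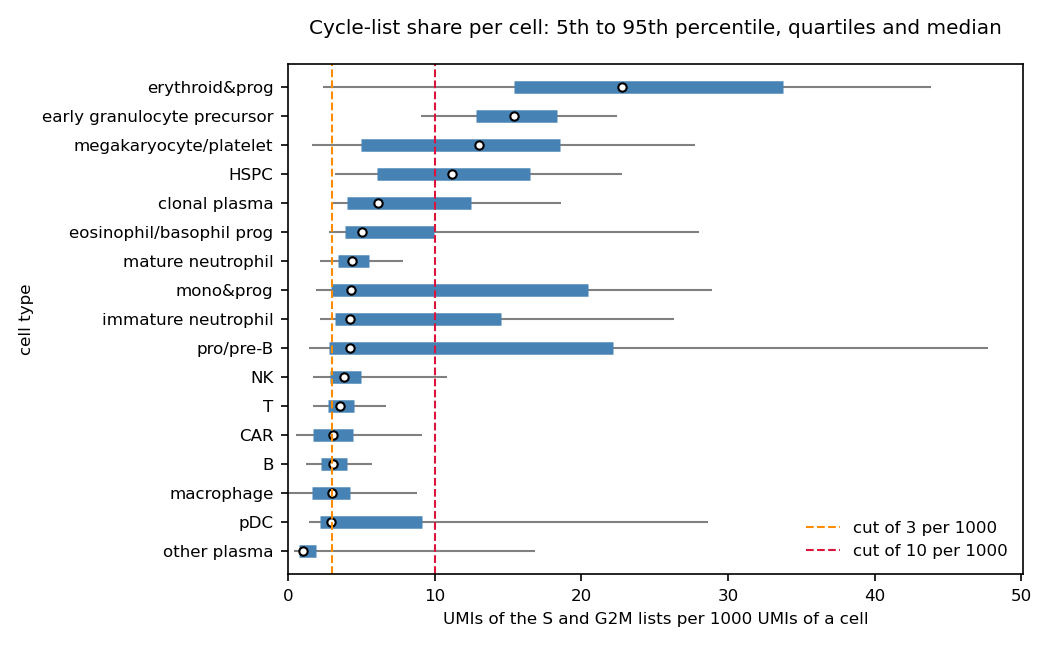
UMIs of the S and G2M lists per 1000 UMIs of a cell (x axis) for the cells of each type: median (circle), quartiles (bar) and 5th to 95th percentile (line), with the limits of 3 and 10 per 1000 dashed. The median of mature neutrophils, 4.38 per 1000, lies above the lower limit, and their 95th percentile, 7.81 per 1000, lies below the higher one.

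Cycling cells had more transcripts of most of the PRC2 core than resting cells of the same type, and less Ezh1. The test was edgeR's quasi-likelihood test on UMIs summed per mouse and class with the mouse as a block, and a call needed both a log2 fold change beyond 0.5 in either direction and an adjusted p (Benjamini-Hochberg) below 0.05. In 8 types with enough cells of both classes, 69 tests of a member were possible. Of these 39 were called higher in cycling cells, where 18.5% of all gene tests were, and 9 were called lower, where 17.8% of all gene tests were. The median of the 69 log2 fold changes was 0.82. The median over all genes lay between -0.04 and 0.03 in 6 types and at 0.24 in erythroid&prog and -0.31 in mature neutrophils.

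Ezh2 was called higher in 7 of the 8 types. In immature neutrophils it was at 138 and 147 CPM in cycling cells of the vehicle mice and 132 and 157 CPM in those of the PM mice, against 7.16, 9.63, 9.23 and 11.1 CPM in resting cells of the same mice. The lowest cycling value lay far above the highest resting one, with a log2 fold change of 3.69 (SE 0.0731, edgeR adjusted p = 2.0e-14). In mono&prog the cycling cells had 231, 231, 192 and 236 CPM and the resting cells 17.8, 29.2, 24.6 and 24.0 CPM, in the same order of mice (log2 3.21, SE 0.112, edgeR adjusted p = 2.31e-09). Cycling and resting cells of these 2 types were mostly in different clusters, with 65.7% of cycling immature neutrophils in one and 52.5% of resting ones in another, and 94.4% and 85.1% for mono&prog. Within the 2 clusters of immature neutrophils that had enough cells of both classes, the Ezh2 difference was far smaller, with log2 fold changes of 1.06 (SE 0.21, edgeR adjusted p = 1.78e-05) in one and 0.69 (95% interval -0.28 to 1.67, not called) in the other. No cluster of mono&prog had enough of both. HSPC, pDC, pro/pre-B cells and eosinophil/basophil progenitors were 1 cluster each.

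Within those single-cluster types the difference in Ezh2 was present too. Cycling pro/pre-B cells had 815, 769, 505 and 610 CPM against 300, 319, 260 and 275 CPM in resting ones (log2 1.34, SE 0.138). Cycling HSPC had 232, 230, 213 and 223 CPM against 102, 130, 135 and 128 CPM (log2 0.91, SE 0.0892), the smallest of the called differences. In pDC the means were 276 ± 35 and 62.1 ± 11.1 CPM (log2 2.12, SE 0.123), and in eosinophil/basophil progenitors 172 ± 37.5 and 41.5 ± 10.0 CPM (log2 2.09, SE 0.209). In none of the 7 types did cycling and resting values of Ezh2 overlap. Resting cells of different types still differed: 288 ± 25.8 CPM in resting pro/pre-B cells lay above 222 ± 20.5 CPM in cycling mono&prog.

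**Figure D3:**
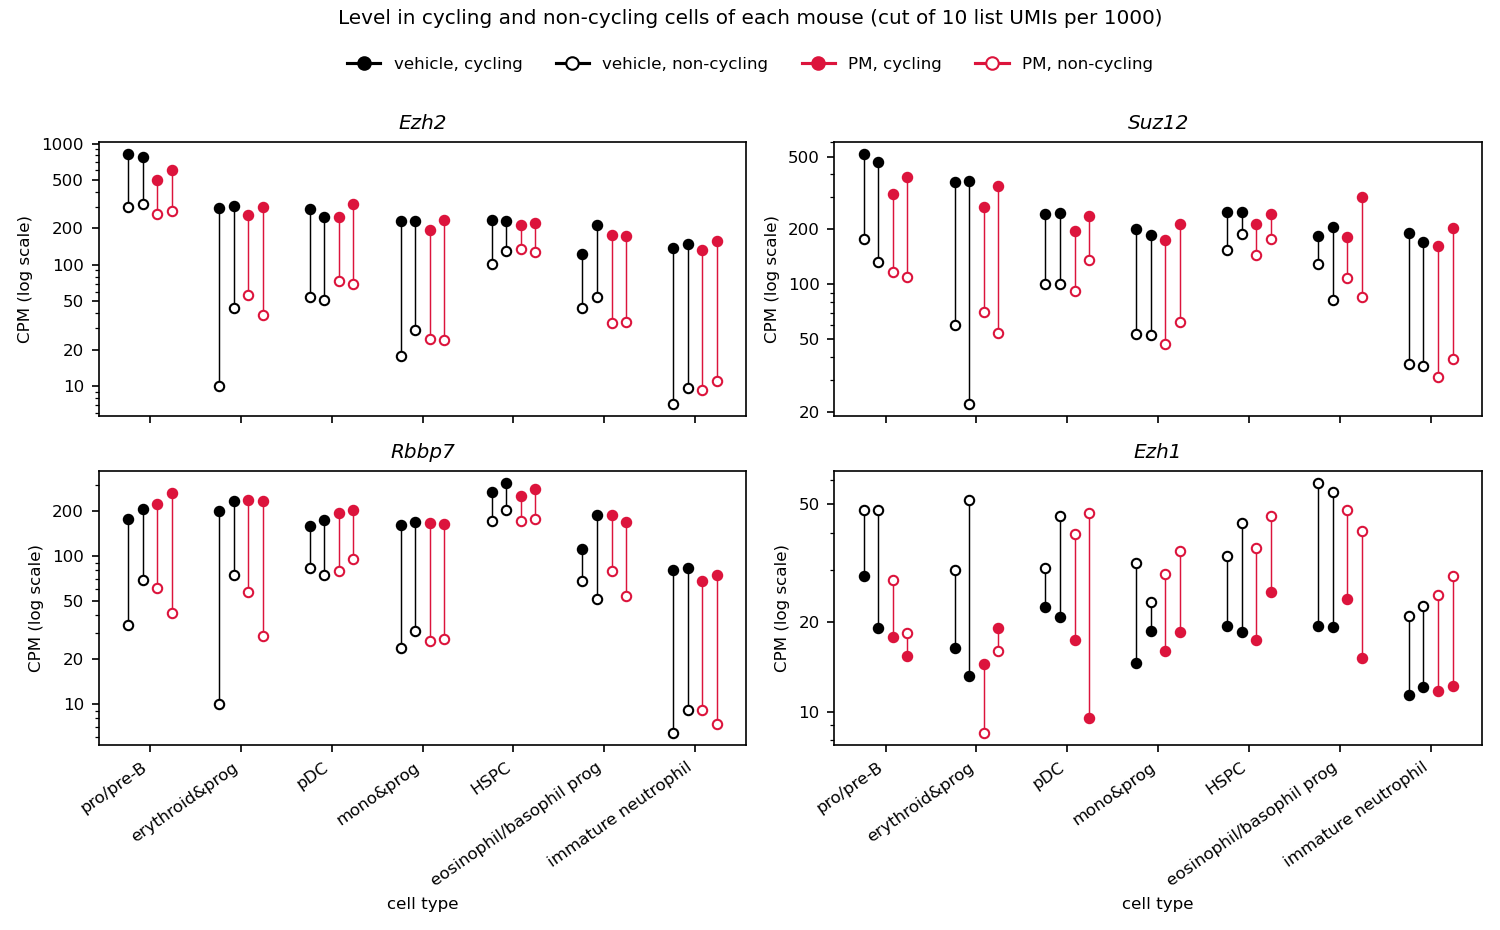
CPM (log scale) of Ezh2, Suz12, Rbbp7 and Ezh1 in cycling (filled) and resting (open, called non-cycling in the legend) cells of each mouse, joined by a line, in 7 cell types, with vehicle mice in black and PM mice in red. The filled points lie above the open ones for Ezh2, Suz12 and Rbbp7 in every mouse, and below them for Ezh1 except in 2 mice of erythroid&prog.

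Ezh1 was lower in cycling cells, and 5 of its 8 tests were called. In immature neutrophils the cycling cells had 11.4, 12.1, 11.7 and 12.2 CPM and the resting cells 21, 22.6, 24.7 and 28.6 CPM (log2 -1.29, SE 0.0897, edgeR adjusted p = 8.14e-09). The other calls were eosinophil/basophil progenitors (log2 -1.30), pDC (-1.16), HSPC (-0.90) and mono&prog (-0.84), each with all 4 mice lower and no overlap. In pro/pre-B cells the log2 fold change was -0.73 (95% interval -1.39 to -0.08, adjusted p = 0.0679) and in erythroid&prog -1.17 (-2.19 to -0.16, adjusted p = 0.0519), and these 2 were not called. The Ezh1 share of Ezh1 and Ezh2 UMIs was 7.65% ± 0.389 in cycling and 72.4% ± 1.86 in resting immature neutrophils. It was 7.10% ± 0.792 and 55.4% ± 8.32 in mono&prog, 6.09% ± 2.19 and 39.5% ± 5.55 in pDC, 8.23% ± 1.29 and 24.2% ± 2.32 in HSPC, and 2.92% ± 0.550 and 10.6% ± 3.44 in pro/pre-B cells.

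Suz12 and Rbbp7 were each called higher in the same 7 types as Ezh2, and Rbbp4 in 6. Suz12 in immature neutrophils was at 181 ± 18.4 CPM in cycling and 35.6 ± 3.43 CPM in resting cells (log2 2.08, SE 0.0498). Its smallest call was in HSPC (log2 0.59, SE 0.0789), where cycling cells had 248, 249, 214 and 243 CPM and resting ones 154, 188, 145 and 176 CPM. Rbbp7 ran from 2.98 (SE 0.0979) in immature neutrophils, with 76.2 ± 6.67 against 7.98 ± 1.34 CPM, to 0.69 (SE 0.0745) in HSPC, with 279 ± 24.8 against 181 ± 15.2 CPM. Rbbp4 ran from 1.56 in immature neutrophils to 0.87 in eosinophil/basophil progenitors. In HSPC it was 0.48 (adjusted p = 8.19e-06), under the limit on the fold.

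Eed moved less than its partner Suz12. It was called in erythroid&prog (log2 1.36, 95% interval 0.45 to 2.27), pro/pre-B cells (0.82) and pDC (0.61). The first of these calls had only 169 resting cells, in a type of 2 clusters. In immature neutrophils the difference of 0.28 (SE 0.0614, 42.9 ± 3.52 against 29.4 ± 2.59 CPM) stayed under the limit on the fold. In mono&prog it was 0.15 (95% interval -0.01 to 0.31), with overlapping mice.

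The accessory subunits parted ways. Phf19 was called higher in all 5 types in which it could be tested, from 1.04 in HSPC to 4.34 in pro/pre-B cells, the latter resting on 82 UMIs in cycling and 2 in resting cells. In immature neutrophils it was at 12.3 ± 2.99 and 1.74 ± 0.437 CPM on 549 and 92 UMIs (log2 2.54, SE 0.148). Mtf2 was called higher in 4 types, by 0.60 to 0.98, and was not called in HSPC (216 ± 11.5 and 208 ± 20.7 CPM, 95% interval of the log2 fold change -0.02 to 0.30). Jarid2 was called lower in 4 types: pro/pre-B cells (65.8 ± 14.3 against 130 ± 19.2 CPM, log2 -0.98), eosinophil/basophil progenitors (-0.67), mono&prog (-0.65) and pDC (-0.57). In immature neutrophils the difference in Jarid2 was in the other direction, 0.16 (SE 0.0589, adjusted p = 0.0212), under the limit on the fold.

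Several values moved with the cycle class. Cycling cells were deeper, with a median of 14165 against 6237 UMIs in immature neutrophils, 20608 against 9740 in HSPC and 8199 against 2395.5 in pro/pre-B cells, and the share of cells with a doublet score among the highest of their library was 14.2% to 40.0% per mouse in cycling and 3.57% to 12.5% in resting pro/pre-B cells. The part of either in the differences was not tested at this limit. The cells called cycling among mature neutrophils went the other way, with a median of 1506 UMIs in 116 cells. None of the 8 members tested there was called, where 3.45% of all genes were. Ezh2 had 0 of their 202822 UMIs, which allows up to 14.8 CPM (3 counts, counting error only), so its level there could not be told from 6.07 ± 0.948 CPM in the other mature neutrophils. Within single clusters (6 with enough cells, the 4 types named above and 2 clusters of immature neutrophils), 26 of 53 tests of a member were called higher, against 13.4% of all gene tests, and 6 lower, against 12.7% of all gene tests. The 4 types are the same comparisons as those already counted among the 69 tests. In the 2 clusters of immature neutrophils, the only comparisons not counted before, 1 of 9 members was called higher where 5.38% of all genes were, and 3 of 9 where 5.54% were. The 1 was Rbbp7 (log2 1.59), and the 3 were Suz12 (1.19), Ezh2 (1.06) and Rbbp4 (0.82). Ezh1 was at -1.25 and -0.78 in them and was not called. At the planned limit of 3 per 1000, 32 of 77 tests in 11 types were called higher, against 12.9% of all gene tests, and 5 lower, against 8.08%.

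Other genes of the pathway were called in both directions, as 36.3% of all gene tests were at this limit. The share called was 30.5% for PRC1, 35.3% for other PRC2 subunits, 36.5% for other complexes with Rbbp4 or Rbbp7, 41.2% for textbook PRC2-repressed genes, 43.8% for demethylases, 50% for HDACs and 81.3% for S phase genes. Of 34 tests of other PRC2 subunits, 4 were called higher in cycling cells and 8 lower (median log2 -0.26), with Phf1, an alternative to Mtf2 and Phf19, at -1.56 in immature neutrophils and Aebp2, a partner of Jarid2, at 0.98. The demethylases of the mark had no call higher and 7 of 16 lower (median -0.54), with Kdm6b between -1.06 in HSPC and -2.66 in erythroid&prog. Subunits of PRC1, the complex that binds the mark, had 27 of 154 tests higher and 20 lower (median 0.04). Those of other complexes with Rbbp4 or Rbbp7 had 42 of 126 higher and 4 lower (median 0.32), led by Chaf1a of the chromatin assembly factor. The latter list also holds Chaf1b (3.67 in pro/pre-B cells), which belongs to the genes that called the cells cycling. Its part of the 42 was thus set by how the classes were made. HDACs of class I and IIb, the enzymes that PM inhibits, had 18 of 38 higher and 1 lower (median 0.63), with Hdac2 at 1.66 in immature neutrophils. S phase genes outside the list used to call the cells had 26 of 32 higher and 0 lower (median 2.14), and textbook PRC2-repressed genes had 0 of 17 higher and 7 lower (median -0.71), with Hoxb4 at -1.24 in eosinophil/basophil progenitors.

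Across 25 groups of cells at this limit (cell types split by class), the log2 level of Ezh2 correlated most with Suz12 among the members (r = 0.934), then with Mtf2 (0.881) and Rbbp4 (0.880), and had r = -0.442 with Ezh1. Among 6865 genes of at least 20 CPM, those most like Ezh2 were Srrt (0.942), Ddx39 (0.938), Smarca5 (0.938), Eif1ad (0.937) and Sae1 (0.936). Those most like Ezh1 were Phf21a (0.897), Lnpep (0.878), Heca (0.876), Vamp2 (0.876) and Crebrf (0.876). The groups come from the same 4 libraries and differ in depth, and the values are descriptions. With cells split at 3 per 1000 (28 groups), Srrt stayed among the 5 most like Ezh2 and Lnpep among those most like Ezh1, and the other 4 of each were different genes. The members most like Ezh2 were then Rbbp4 (0.796), Suz12 (0.794) and Phf19 (0.694), with Mtf2 at 0.641 and Ezh1 at -0.255.

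Few PRC2 transcripts were called between PM and vehicle mice in whole cell types. Of 140 tests of a member in 17 types, 1 was called, which was Rbbp7 in pro/pre-B cells, while 1.79% of all gene tests were called. The median log2 fold change of the 140 was -0.06, and the medians over all genes lay between -0.01 and 0.01. Unadjusted p-values under 0.05 came from 13 member tests (9.29%), against 12.6% of all gene tests. DESeq2 called 0 of 153 tests, with 5 at an unadjusted p under 0.05. With 2 mice a group no exact permutation test of a single value can go below p = 0.33, so the tests here rest on edgeR's spread across genes.

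In pro/pre-B cells the vehicle mice had 118 and 142 CPM of Rbbp7 (42 and 310 UMIs), whereas the PM mice had 188 and 221 CPM (300 and 235 UMIs). Both PM mice lay above both vehicle mice, with a log2 fold change of 0.69 (SE 0.190, 95% interval 0.30 to 1.08, edgeR adjusted p = 0.0231). In pro/pre-B cells 8.38% of all genes were called. Cycling cells made up 34.9% and 24.5% of these cells with vehicle but 48.0% and 46.6% with PM, and Rbbp7 was higher in cycling pro/pre-B cells in every mouse. Within the classes the log2 fold change was 0.40 (95% interval -0.04 to 0.85, adjusted p = 0.366) in cycling and -0.11 (-0.91 to 0.69) in resting cells, neither of them called. The S phase genes Cdca7 (0.85, SE 0.214, adjusted p = 0.014) and Hells (0.82, SE 0.191, adjusted p = 0.00708) were also called higher in whole pro/pre-B cells. Both belong to the list that called the cycling cells. They were the only calls among 352 tests of S phase genes in whole types. The call of Rbbp7 was lost in DESeq2 (adjusted p = 0.146), with library size alone in place of TMM scaling (0.0533), and without vehicle 1 (0.228), vehicle 2 (0.0748) or PM 2 (0.0679).

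Ezh2 had no call in any type under PM. In pro/pre-B cells it was at 603 and 556 CPM with vehicle and 449 and 541 CPM with PM (log2 -0.15, 95% interval -0.49 to 0.19). In the cycling pro/pre-B cells both PM mice (505 and 610 CPM) lay below both vehicle mice (815 and 769 CPM), at -0.42 (-0.81 to -0.04, edgeR adjusted p = 0.238). The UMIs of the cycle list in these cells were at 33.7 and 34.6 per 1000 with vehicle and 22.7 and 29.4 per 1000 with PM, and their part was not tested. In clonal plasma cells, the myeloma, it was at 140 and 142 CPM with vehicle and at 90.1 and 158 CPM with PM, so that the PM mice lay on both sides of the vehicle mice (log2 -0.26, -0.71 to 0.18). Of these cells 42.9% and 48.1% were cycling at 10 per 1000 with vehicle and 32.6% and 25.8% with PM. The part of this was not tested either. HSPC gave the narrowest comparison with 199 and 201 CPM against 191 and 202 CPM (log2 -0.03, -0.26 to 0.20), followed by early granulocyte precursors (-0.12, -0.36 to 0.13). In NK cells it was at 123 and 97.8 CPM with vehicle and 71.4 and 51.0 CPM with PM, on 41, 27, 31 and 15 UMIs (log2 -0.85, SE 0.329, edgeR adjusted p = 0.999). Cycling cells made up 12% and 9.26% of the NK cells with vehicle and 3.74% and 0% with PM, at 10 per 1000. The part of this share in the Ezh2 value was not tested.

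**Figure D4:**
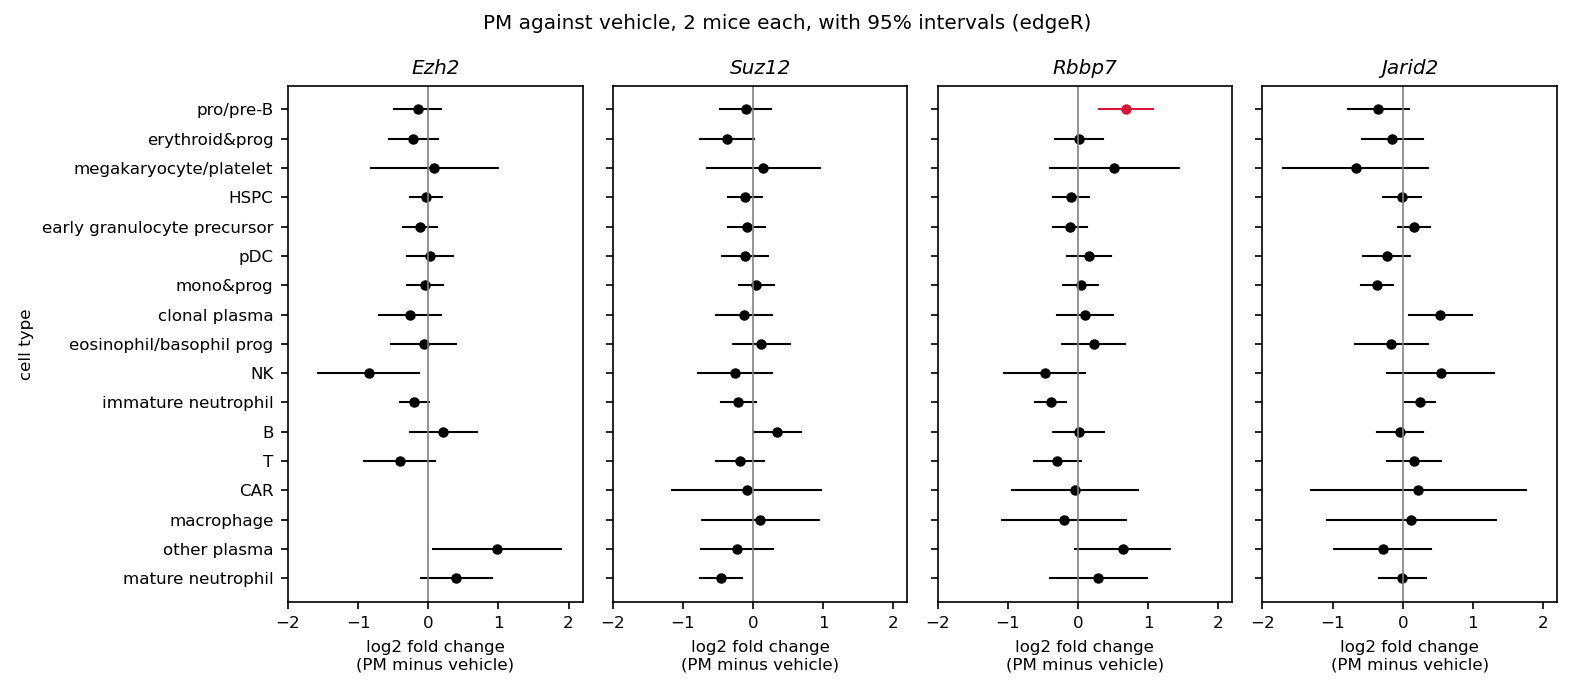
Log2 fold change of PM against vehicle (x axis) with its 95% interval from edgeR (2 mice a group) for Ezh2, Suz12, Rbbp7 and Jarid2 in each whole cell type, with the 1 called value in red; Ezh2 passed the filter on low counts in 15 of 17 types. Rbbp7 in pro/pre-B cells stands at 0.69, and most other intervals include 0.

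Jarid2 differed in direction between types. In mono&prog both PM mice (93.5 and 104 CPM) lay below both vehicle mice (122 and 127 CPM), with a log2 fold change of -0.37 (SE 0.103, adjusted p = 0.117). The values within cycling and resting mono&prog were -0.34 and -0.31. The leading cluster of mono&prog was another one with vehicle (57.3% of the cells) than with PM (49.7%), and so was that of immature neutrophils (37.8% and 43.6%). The part of this shift in the Jarid2 and Rbbp7 values was not tested. In immature neutrophils the PM mice (46.8 and 54.9 CPM) lay above the vehicle mice (39.6 and 40.4 CPM), at 0.25 (SE 0.0974, adjusted p = 0.162), and in clonal plasma cells too (96.6 and 147 against 80.7 and 79.3 CPM, 0.54, SE 0.218, adjusted p = 0.415). None of these was called. The clonal plasma values came from 92 and 31 cells with PM and 21 and 27 with vehicle. The cycling share of these cells was lower with PM, as given above, and its part in the Jarid2 value was not tested.

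Rbbp7 in immature neutrophils was at 45 and 42.4 CPM with vehicle and 35.6 and 35.4 CPM with PM. The log2 fold change of -0.39 (SE 0.101, adjusted p = 0.0476) was under the limit on the fold and was not called. Of these cells 34.8% and 30.6% were cycling in vehicle mice, compared with 25.6% and 25.4% in PM mice. Within the classes the Rbbp7 values were -0.28 (adjusted p = 0.176) in cycling and -0.03 (adjusted p = 0.963) in resting cells. The part of the cycling share in the value of the whole type was not tested. Suz12 in mature neutrophils was at 40.4 and 41.9 CPM with vehicle and at 28.2 and 31.1 CPM with PM (log2 -0.46, SE 0.129, adjusted p = 0.0745), where the leading cluster was another one with vehicle (33.2% of the cells) than with PM (31.9%). Ezh1 in pro/pre-B cells was at 36.5 and 32.6 CPM with vehicle and at 20.1 and 16 CPM with PM, on 13 to 71 UMIs (log2 -0.80, SE 0.323, adjusted p = 0.132). Cycling cells made up 34.9% and 24.5% of these cells with vehicle and 48.0% and 46.6% with PM. The part of this share in the Ezh1 value was not tested. Phf19 in B cells had 1 and 0 UMIs with vehicle and 20 and 17 with PM, out of 157 and 469 cells against 1257 and 611 (adjusted p = 0.0632). For Rbbp4, Eed and Mtf2 the smallest adjusted p over the whole types was 0.216, 0.273 and 0.392.

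The test of whether the PM effect differs between the 17 whole types, added after seeing the data, took all types in 1 edgeR fit with the mouse as a block. This fit assumed 1 spread per gene for all types, while in the other tests each type was fitted by itself. Whether the spread differs between types was not tested. The test between types passed at an adjusted p under 0.05 for 3 of the 9 members, Rbbp7 (adjusted p = 0.00124), Jarid2 (0.0146) and Phf19 (0.0319), while it passed for 12.3% of all genes. The other 6 had adjusted p-values from 0.175 (Ezh2) to 0.728 (Mtf2). Without PM 1 it passed for none of the 9 and for 1.22% of all genes, and without PM 2 for none and for 4.93%, with 2 of the 9 at an unadjusted p under 0.05 each time. Without vehicle 2 it passed for Rbbp7 alone and for 7.56% of all genes. With library size alone in place of TMM scaling Rbbp7 no longer passed (adjusted p = 0.0579). Among the 7 types with at least 1000000 UMIs in each mouse Jarid2 passed (0.0176), whereas Rbbp7 (0.0723) and Phf19 (0.119) did not.

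**Figure D5:**
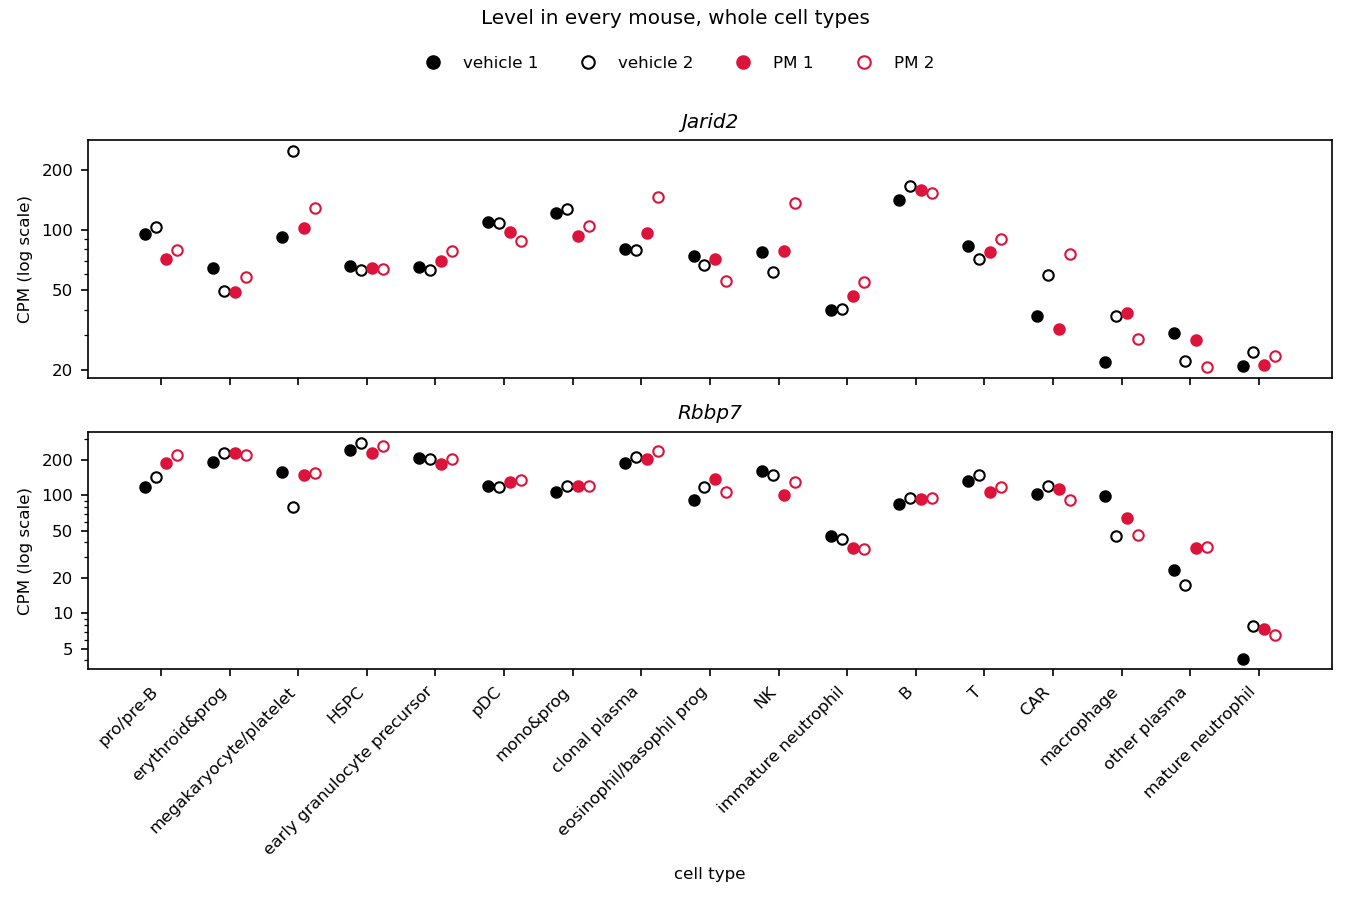
CPM (log scale) of Jarid2 and Rbbp7 in every mouse for 17 whole cell types, with vehicle mice in black and PM mice in red, filled for mouse 1 and open for mouse 2 of a group. The PM points of Jarid2 lie below the vehicle points in mono&prog (93.5 and 104 against 122 and 127) and above them in immature neutrophils (46.8 and 54.9 against 39.6 and 40.4).

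Splitting the cells by class did not bring out further PM effects. With cells split at 10 per 1000, edgeR called 0 of 188 member tests in 25 groups of cells, while 1.57% of all gene tests were called. Of the 188 tests 11 (5.85%) had an unadjusted p under 0.05, against 11.6% of all gene tests. DESeq2 called 0 of 223, with 2 under 0.05. With cells split at 3 per 1000, 1 of 187 tests in 28 groups was called, which was Rbbp7 in cycling pro/pre-B cells (log2 0.64, SE 0.204, adjusted p = 0.0491), while 1.73% of all gene tests were called. Whether the PM effect differs between cycling and resting cells was tested as an interaction. EdgeR called 0 of 69 member tests at 10 per 1000, where 0.512% of all gene tests were called, and 0 of 77 at 3 per 1000, where 0.435% were. In each set 4 tests had an unadjusted p under 0.05 (5.80% and 5.19%), against 7.57% and 7.45% of all gene tests. DESeq2 called none in either, with 1 and 0 under 0.05. For Ezh2 at 10 per 1000 the difference was -0.25 (95% interval -0.55 to 0.05) in immature neutrophils, -0.30 (-0.67 to 0.07) in HSPC and -0.76 (-2.26 to 0.74) in erythroid&prog. Of its 8 differences 7 were below 0, with a median of -0.31, and 1 of the 8 was that of mature neutrophils, where the cycling cells had no Ezh2 UMI.

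Of the other genes of the pathway under PM, PRC1 subunits had 4.26% of their tests called, demethylases 3.23% and textbook PRC2-repressed genes 3.13%, against 1.79% of all gene tests, and HDACs had 1.28%, other complexes with Rbbp4 or Rbbp7 0.823% and S phase genes 0.568%. Other PRC2 subunits had 0 of 66 tests called in whole types (median log2 0.00), and the demethylases 1 of 31, which was Kdm6b in mono&prog (log2 -0.83, SE 0.150, adjusted p = 0.0346). PRC1 subunits had 11 of 282 tests called higher and 1 lower (median 0.09), among them Pcgf6 in pro/pre-B cells (1.31), Cbx6 in B cells (0.81) and, as the one lower, Bcor in pro/pre-B cells (-0.71). Other complexes with Rbbp4 or Rbbp7 had Mta1 higher in pro/pre-B cells (0.77) and Suds3 lower in mature neutrophils (-0.59) among 243 tests (median -0.01). HDACs of class I and IIb had 1 of 78 called, Hdac8 in pro/pre-B cells (-1.41, SE 0.349, adjusted p = 0.0132), and the median was 0.00. Textbook PRC2-repressed genes had 1 of 32 higher (median 0.04), and S phase genes had 2 of 352 higher, which were the Cdca7 and Hells values above (median 0.02).

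Identity of the counted genes limits a few values. All 9 gene IDs of the files are in GENCODE vM21 on GRCm38, where Ezh2 lies at chr6:47530139-47595341, Ezh1 at chr11:101191115-101226463, Suz12 at chr11:79993106-80034123, Eed at chr7:89954654-89980983, Rbbp4 at chr4:129307100-129335370, Rbbp7 at chrX:162760402-162779092, Jarid2 at chr13:44729474-44921643, Mtf2 at chr5:108065674-108109004 and Phf19 at chr2:34893757-34914026. An exon of 7 of them is touched by a gene on the other strand, such as Txlng for Rbbp7 and Tmed5 for Mtf2. How reads that match both paralogs of a pair (Ezh1 and Ezh2, Rbbp4 and Rbbp7) were counted is not given in the sources used here. Levels of a few CPM, as of Ezh2 and Rbbp7 in mature neutrophils, may hold RNA free in the droplets, and its part was not tested.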

How the data were processed

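Single-cell RNA-seq was made by the authors with the 10x 3′ V3 kit from the marrow of 2 vehicle and 2 PM mice. The authors deposited whole-number UMI counts per gene and cell, written by Cell Ranger 6.0.1 per the file headers. The study's methods name GRCm38 and the submitters' processing notes GRCm39, and 99.6% of the gene IDs are in GENCODE vM21 on GRCm38.

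Cells under 300 genes or over 20% mitochondrial UMIs were dropped, and the rest were clustered with scanpy 1.11.5 (2500 variable genes without the members, 30 components, 15 neighbors, resolution 1) and named from markers. The depth was 69828595 to 109447030 UMIs per library, and no correction for free RNA was made. Doublets were scored with Scrublet, kept, and removed in an alternative, taking the highest scores at 0.8% per 1000 cells, since the automatic threshold failed in some libraries. Counts were summed per mouse, type and class with at least 10 cells each and tested with edgeR 4.0.16 in R 4.3.3 (TMM, filterByExpr, robust quasi-likelihood), at a Benjamini-Hochberg adjusted p under 0.05 over all genes of a group and an absolute log2 fold change over 0.5. The scripts were tested on simulated data. Cycling cells had at least 3 of 1000 UMIs (and 3 UMIs) in Seurat's S and G2M lists (Seurat 5.3.0), or 10 of 1000, a limit chosen after seeing the data. Alternatives were DESeq2 1.42.0, library size alone, no filter, stricter cells, thinned cells, other limits, blocks, and each mouse left out.

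The members and gene lists were chosen with earlier results of these data known. All members are named. From other lists at most the 5 called genes with the largest change and a mean of at least 20 CPM are named, and for Ezh2 and Ezh1 the 5 genes with the highest Pearson correlation of log2(CPM + 1). Nothing in the labels ties mice into pairs. In the tests of PM within a group of cells, p-values rest on the spread between these mice and on edgeR's spread across genes. Where the mouse was a block, they rest on the spread left within mice.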

Additional observations from a re-analysis of the deposited data

Results flagged for a closer look

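The difference of the PM effect between the 17 whole cell types passed the edgeR test over all types for Rbbp7 (adjusted p = 0.00124), Jarid2 (adjusted p = 0.0146) and Phf19 (adjusted p = 0.0319), which is why these 3 are listed. The log2 fold change of Rbbp7 was 0.69 in pro/pre-B cells and -0.39 in immature neutrophils, where the share of cycling cells moved in the same directions. The part of that share in the Rbbp7 values was not tested. The log2 fold change of Jarid2 was -0.37 in mono&prog and 0.25 in immature neutrophils. Phf19 rested on 1 and 0 UMIs with vehicle in B cells and 5 and 2 in mature neutrophils. Within cycling and resting cells Rbbp7 was at 0.40 and -0.11 in pro/pre-B cells and at -0.28 and -0.03 in immature neutrophils. Among the 7 types with at least 1000000 UMIs in each mouse Jarid2 passed (adjusted p = 0.0176), and Rbbp7 (0.0723) and Phf19 (0.119) did not. Without PM 1 or PM 2 none of the 3 passed, while the share of all genes that passed fell from 12.3% to 1.22% and 4.93%.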

How the results depend on the processing

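With 2 mice a group and few UMIs in rare types, small PM effects on the members were not detectable, and larger ones could be missed. In simulated counts, a log2 fold change of 1 was recovered for 42% of changed genes in pro/pre-B cells and 45.8% in clonal plasma cells. The share was 72.7% in mono&prog and 79.1% in immature neutrophils. A log2 fold change of 2 was recovered for 90.8% to 92.1% of changed genes in these types. For whole types, where 1 member test was called, the count was 0 with DESeq2, with library size alone and with a crossed replicate block (vehicle 1 with PM 2), 1 with the replicate block, 2 with no filter on low counts (adding Suz12 in mature neutrophils, log2 -0.51, edgeR adjusted p = 0.0236) and 2 with stricter cells. Leaving out 1 mouse gave 0 to 2. For the classes at 3 per 1000, also with 1 call, it was 0 with DESeq2, library size alone, thinned cells, and limits of 5 and 10 per 1000, and 0 to 2 without 1 mouse. At 10 per 1000 leaving out 1 mouse gave 0 to 1, and the same range held for the interaction there, with the 1 call made without vehicle 2. The replicate block moved no other count of PM calls by over 1.5 times. For deviations of mice with the same number the correlation was -0.236 to 0.161 over 17 types. No pairing by number was seen in these values, and a shared batch or day was not tested.

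Members called lower in cycling cells numbered 5 at 3 per 1000, 3 at 2 per 1000, and 9 at both 5 and 10 per 1000. The counts called higher stayed within 1.5 times under every alternative run. The test between types passed 2 members with library size alone (without Rbbp7), 1 member (Jarid2) among the 7 types with the most UMIs in each mouse (at least 1000000), and 0 to 3 without 1 mouse. Ezh2 in pro/pre-B cells turned from -0.15 to 0.0784 on the log2 scale with doublets removed, and neither was called. Of the alternatives for a chosen set of single members, that one included, 93 of 111 for PM and 204 of 209 for cycling kept direction and call. Most of the PM values in this set were not called to begin with, so the first count says little about calls. The call of Rbbp7 in whole pro/pre-B cells was kept in 5 alternatives and lost in 6. That in cycling pro/pre-B cells at 3 per 1000 was kept in 5 and lost in 10. The cause of these changes was not tested.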
